A study of Mus musculus with 8 samples.

Results

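The liver's response to dietary alcohol was compared between mice that lack *Elf4* in the intestinal epithelium and WT mice, as a difference of differences over all 8 RNA-seq libraries of the series. For each gene, the log2 ratio of alcohol to control in WT was subtracted from the same ratio in *Elf4-/-*, so that a positive interaction value means a response that was more upward, or less downward, in *Elf4-/-*. Each of the 4 groups held 2 liver libraries from male C57BL/6 mice aged 9 weeks. WT-Control and WT-EtOH came from mice labelled wild type, which per the methods carried the Cre transgene. *Elf4-/-*-Control and *Elf4-/-*-EtOH came from *Elf4* floxed mice with Cre under the villin promoter, which is active in gut epithelium and not in hepatocytes. Mice were pair-fed for 21 days, the EtOH groups on Lieber-DeCarli liquid food holding 5% (w/v) alcohol and the control groups on the version with isocaloric maltose dextrin. Nothing in the sources used here says that the 2 libraries of a group are separate animals, so p-values measure only the spread between these libraries.

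Hepatocytes oxidise most ingested alcohol, and feeding it is known to alter hepatic lipid handling, redox balance, sterol and one-carbon metabolism and stress responses. Portal blood carries gut-derived products to Kupffer cells and sinusoidal endothelium, so a change in the gut epithelium can be read in the liver without any change of the gene there. An interaction asks whether the same stimulus moved a function in 1 genotype only, by a smaller amount, or the other way.

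The 8 libraries held between 6171051 and 9157362 counts over 19267 genes, and 13993 genes were tested. Alcohol-fed *Elf4-/-* livers were the least alike within a group, with 283 genes (2.02%) over 4-fold apart between the 2 libraries, against 132 in WT-Control livers, 32 in WT-EtOH livers and 29 in *Elf4-/-*-Control livers. Mitochondrial-genome genes took 33.7% and 23.4% of the counts in WT livers on the control diet and 12.5% and 10.8% with alcohol, against 18.7% and 18.5% in *Elf4-/-* controls and 22.1% and 18.3% in alcohol-fed *Elf4-/-* livers. Scaling without these genes also gave 0 interaction calls. *Elf4* itself was low in every liver, from 0.895 to 4.51 CPM (counts scaled to library size), with an interaction of 0.48 ± 0.79 (log2 ± SE, adjusted p = 0.876). Since the deletion is made in the intestine, its liver level does not check the genotype labels.

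No gene passed an adjusted p of 0.05 for the interaction with edgeR's quasi-likelihood test, which called 0% of genes as higher and 0% as lower. At an unadjusted p under 0.05, 691 genes (4.94%) had a positive and 720 (5.15%) a negative value, 74 genes lay under an adjusted p of 0.25, and the smallest adjusted p was 0.108. DESeq2 called 111 genes, of which 83 were positive (0.939% of its 8838 genes with an adjusted p) and 28 negative (0.317%), while limma-voom called 0. Leaving out *Elf4-/-*-EtOH library 1 gave 62 edgeR calls and leaving out library 2 of that group gave 139. With scaling to library totals alone, the median of all genes moved by -0.46 in the interaction, by 0.43 in the WT response and by -0.03 in the *Elf4-/-* response, and the unadjusted split became 198 positive to 2399 negative. All values that follow are relative to TMM scaling unless a sentence says otherwise.

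The alcohol response by itself was called in more genes in WT than in *Elf4-/-*. In WT, 1518 genes rose (10.8%) and 1507 fell (10.8%), while in *Elf4-/-* 239 rose (1.71%) and 165 fell (1.18%). On library totals the WT split became 3422 to 634. The total of 404 in *Elf4-/-* rested on single libraries: it was 20 and 9 without *Elf4-/-*-Control library 1 or 2, 134 and 135 without WT-EtOH library 1 or 2, 220 without *Elf4-/-*-EtOH library 1 and 1683 without library 2 of that group. In WT the total was 3025, and ranged from 626 without WT-EtOH library 2 to 4023 without *Elf4-/-*-EtOH library 2. A response called in WT and not in *Elf4-/-* is therefore not by itself a difference between genotypes, and only the interaction tests one.

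Among the 1411 genes at an unadjusted interaction p under 0.05, 855 (60.6%) had an alcohol response called in WT only, against 19.2% of all genes tested. The *Elf4-/-* response alone was called in 29 of them. Both responses were called with the same sign in 47, of which 39 were smaller and 8 larger in *Elf4-/-*, and 1 gene, *Tlcd2*, had both called with opposite signs. The remaining 479 had neither. By size, the WT response was the larger in 1172 of these genes (83.1%), against 64.9% of all genes, and fitted responses of opposite sign were found in 710 (50.3%) against 27.0%. These shares describe the interaction and are not independent of it, because it is computed from the same responses.

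**Figure D1:**
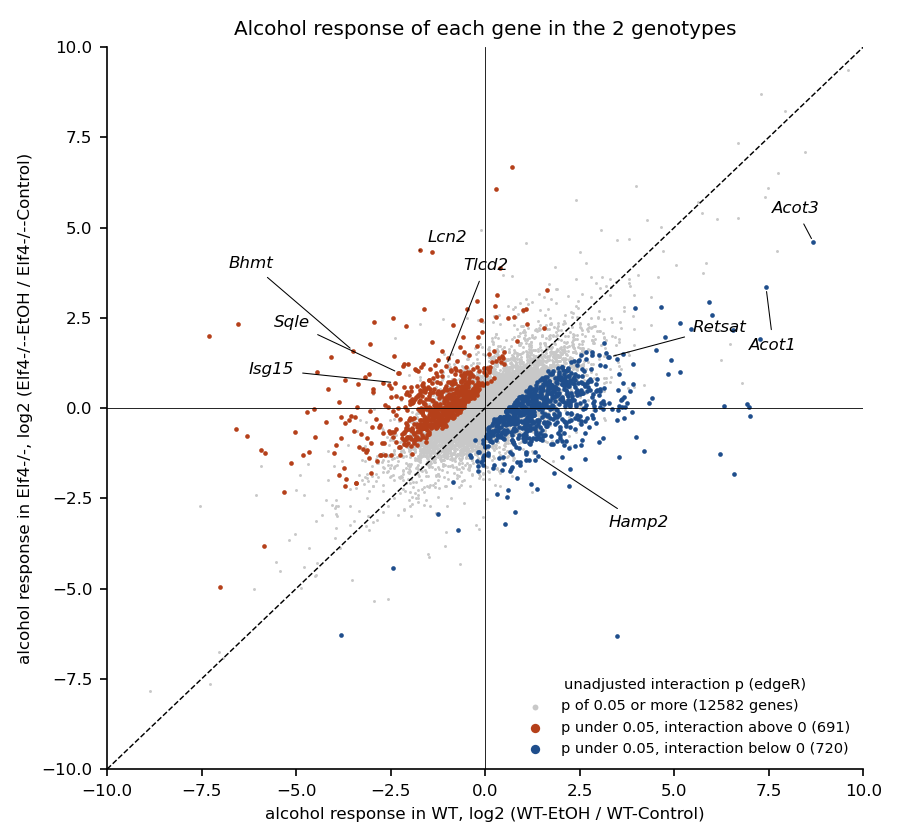
Alcohol response of every gene tested in WT (x axis, log2 EtOH over Control) against that in *Elf4-/-* (y axis, the same quantity), with genes at an unadjusted interaction p under 0.05 and named genes marked. Most marked genes lie nearer to the x axis than to the y axis, and 710 of the 1411 lie in the 2 quadrants of opposite sign.

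Among lists with at least 10 genes tested, the share of members with a positive interaction at an unadjusted p under 0.05 was 84.6% in the mitochondrial genome, 80% in cholesterol biosynthesis, 52.2% in amino acid breakdown, 33.3% in acute-phase proteins and 29% in interferon-stimulated genes. The share with a negative one was 69.2% in Kupffer cell markers, 66.7% in sinusoidal endothelial markers, 33.3% in gluconeogenesis and glycolysis, 25% in heat shock proteins and 21.1% in peroxisomal and omega fatty acid oxidation. Each list is described by counts and medians beside those of all 13993 genes, whose median was -0.0021 for the interaction, 0.0124 for the WT response and 0.0131 for the *Elf4-/-* response. Over all genes tested, 10.8% rose and 10.8% fell in WT, and 1.71% rose and 1.18% fell in *Elf4-/-*. A count of 0 called in *Elf4-/-* in a list is near that share. In whole liver, fewer cells of a type and less RNA per cell cannot be told apart.

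**Figure D2:**
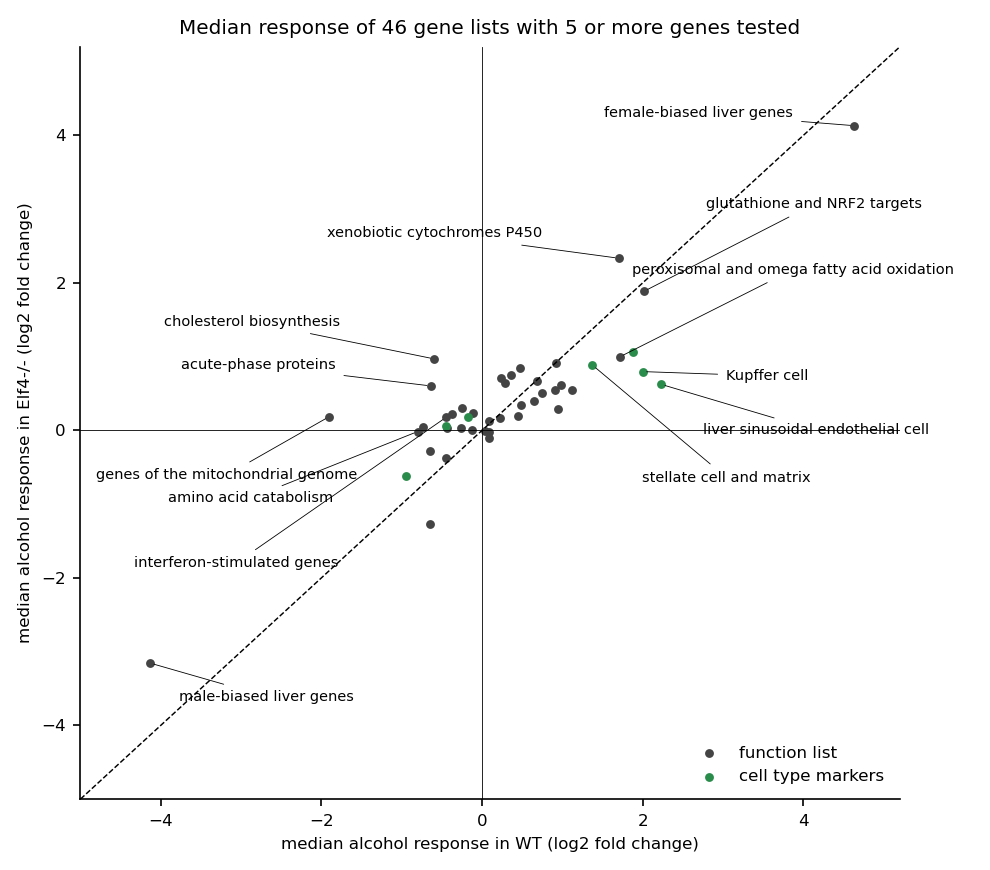
Median alcohol response of the gene lists with at least 5 genes tested, in WT (x axis, log2 EtOH over Control) against that in *Elf4-/-* (y axis, the same quantity). Cholesterol biosynthesis (-0.59 in WT, 0.97 in *Elf4-/-*) and acute-phase proteins (-0.64 and 0.60) have medians on opposite sides of 0, and liver sinusoidal endothelial markers (2.23 and 0.63) have the larger median in WT.

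Cholesterol biosynthesis genes had fitted responses in opposite directions in the 2 genotypes. The pathway turns acetyl-CoA into mevalonate, squalene, lanosterol and cholesterol, and its enzymes are transcribed under SREBP2, which is released when membrane sterol falls. Of its 20 genes tested, 19 had a positive interaction value, 16 at an unadjusted p under 0.05 (4.94% of all genes tested) and 0 with a negative value at that level (5.15% of all). The median response was -0.59 in WT and 0.97 in *Elf4-/-*, and 14 of 20 had responses of opposite sign. In WT 5 fell and 1 rose (10.8% and 10.8% of all genes), and in *Elf4-/-* 6 rose and 0 fell (1.71% and 1.18% of all). The 5 became 3 without WT-Control library 1 and 2 without either WT-EtOH library. The 6 became 3 without either WT-Control library, 0 without either WT-EtOH or either *Elf4-/-*-Control library, 1 without *Elf4-/-*-EtOH library 1 and 11 without library 2 of that group. The interaction median was 1.53, from 1.35 to 1.76 when each library was left out, and 1.06 on library totals.

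*Sqle*, squalene epoxidase (chr15:59315077-59331192), had the smallest interaction p of all genes. It stood at 33.6 and 28.7 CPM on the control diet and 5.94 and 6.73 with alcohol in WT, and at 44.8 and 38.3 without and 107 and 56.8 with alcohol in *Elf4-/-*. The EtOH libraries thus lay wholly below control in WT and wholly above it in *Elf4-/-*. Over all genes tested, 561 (4.01%) had the diets wholly apart in opposite directions in the 2 genotypes. Of these, 321 were at an unadjusted interaction p under 0.05. Its interaction was 3.27 ± 0.42 (adjusted p = 0.108), from a response of -2.29 ± 0.31 in WT (adjusted p = 0.00242) and a value of 0.98 ± 0.28 in *Elf4-/-* (adjusted p = 0.0842).

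The other enzymes are given in the order of the pathway and, except *Msmo1*, were chosen after their values were seen. *Hmgcs1*, which makes HMG-CoA, stood at 564 and 296 CPM on the control diet and 132 and 177 with alcohol in WT, and at 373 and 354 without and 904 and 624 with alcohol in *Elf4-/-*. Its interaction was 2.55 ± 0.47 (adjusted p = 0.212), and its exons overlap those of Gm48342 on the other strand. The response in WT, -1.47 (adjusted p = 0.0144), lost its call without WT-Control library 1 (-0.94, adjusted p = 0.0907) or without either WT-EtOH library. *Fdft1*, squalene synthase, rose in *Elf4-/-* by 0.99 (adjusted p = 0.0411), a call lost when any of 7 libraries was left out, with *Elf4-/-*-EtOH library 2 as the exception. Its exons overlap those of *Ctsb* on the other strand.

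*Msmo1*, a sterol C4-methyl oxidase (chr8:64718139-64733792), had its called response in *Elf4-/-*. It stood at 77.4 and 88.5 CPM on the control diet and 53.9 and 50.2 with alcohol in WT, and at 100 and 107 without and 440 and 222 with alcohol in *Elf4-/-*. It rose by 1.68 ± 0.30 in *Elf4-/-* (adjusted p = 0.0254), a call lost without either *Elf4-/-*-Control or either WT-EtOH library, and its WT value was -0.67 ± 0.30 (adjusted p = 0.13). *Nsdhl*, the next enzyme of that step, fell by 1.62 in WT (adjusted p = 0.00662), which was lost without either WT-EtOH library (adjusted p = 0.0545 and 0.062). *Dhcr7*, the last reductase, stood in WT at 41 and 44.5 CPM on the control diet and 12 and 11.7 with alcohol, a response of -1.85 ± 0.29 (adjusted p = 0.00359). Its *Elf4-/-* value was 0.26 ± 0.27, with 60.9 and 56.5 CPM in control and 92.6 and 48.6 with alcohol, so that those groups overlapped.

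Genes that sense, take up or export sterol had fewer values at that level. Of 18 tested, 2 had a positive and 2 a negative interaction at an unadjusted p under 0.05 (5 positive without *Elf4-/-*-Control library 1 and 4 of each sign without *Elf4-/-*-EtOH library 1), and the median was 0.41, which became -0.04 on library totals. *Srebf2*, encoding SREBP2 and chosen after its values were seen, had an interaction of 0.69 ± 0.34. The 2 members of this list with the smallest p were *Npc2* (-1.29) and the efflux pump gene *Abcg1* (-1.32). They were among 6 members with negative values, against 12 with positive values of up to 1.94. Both rose in WT, by 1.80 and 1.88 (the latter 1.85 and not called without WT-EtOH library 2).

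The sterol regulatory element is shown because SREBP2 acts on this pathway through it. The letters TCACNCCAC, on either strand, were found in the RefSeq promoter window (250 bases before to 50 after the start) of 1 of the 15 cholesterol biosynthesis genes with a window (6.67%) and of 388 of 27025 genes overall (1.44%). The match was in *Hmgcs1*, in GRCm38.p6 at chr13:119690204-119690233 on the plus strand, with capitals marking the motif:
*Hmgcs1*: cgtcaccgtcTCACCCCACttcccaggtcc
The first base shown lies 147 bases before the start site. A match is a description of letters and not a measured binding site.

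Interferon-stimulated genes called in WT fell with alcohol, with *Ifit2* as the exception. These genes encode antiviral effectors and are transcribed by the interferon-activated complex ISGF3. Of 31 tested, 26 had a positive interaction value, 9 at an unadjusted p under 0.05 (4.94% of all genes tested). At that level 0 were negative (5.15% of all). In WT 10 fell and 1 rose (10.8% and 10.8% of all genes). In *Elf4-/-* 0 were called, near the share of all genes there (1.71% rose and 1.18% fell). The medians were -0.45 in WT, 0.18 in *Elf4-/-* and 0.69 for the interaction. The 9 became 5 without *Elf4-/-*-Control library 2. The 10 became 6 without either WT-Control library and 4 and 3 without WT-EtOH library 1 or 2. On library totals the interaction counts became 4 positive and 2 negative and the WT counts 3 rising and 4 falling, with a median interaction of 0.24.

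*Isg15*, a ubiquitin-like modifier (chr4:156199424-156200818), stood at 20.3 and 28.2 CPM on the control diet and 5.18 and 4.08 with alcohol in WT, and at 12 and 10.6 without and 21.8 and 15.1 with alcohol in *Elf4-/-*. Both genotypes were free of overlap between diets, in opposite directions, a pattern found in 4.01% of all genes tested. The interaction was 3.09 ± 0.40 (adjusted p = 0.108), with a response of -2.39 ± 0.29 in WT (adjusted p = 0.00181) and 0.70 ± 0.27 in *Elf4-/-* (adjusted p = 0.177). *Ifit1*, which binds viral RNA (chr19:34640871-34650009), stood at 36.7 and 34.8 CPM on the control diet and 11.8 and 10.7 with alcohol in WT, and at 19 and 21 without and 22.6 and 28 with alcohol in *Elf4-/-*. Its interaction was 2.01 ± 0.28 (adjusted p = 0.129), from -1.67 ± 0.20 in WT and 0.34 ± 0.20 in *Elf4-/-*. In both genes the *Elf4-/-*-Control libraries already lay below the WT-Control libraries.

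Further members were chosen after their values were seen. *Mx2* fell by 1.78 ± 0.24 in WT and had -0.02 ± 0.24 in *Elf4-/-*, where all 4 libraries stood between 12.1 and 13.6 CPM. *Usp18*, which removes ISG15 from proteins and damps interferon receptor signalling, had an interaction of 2.21 ± 0.44, and its WT response of -1.37 (adjusted p = 0.0157) was lost without WT-Control library 2 (-0.98, adjusted p = 0.1) or either WT-EtOH library. *Ifit2* went the other way, with 1.37 ± 0.38 in WT (adjusted p = 0.0297) and an interaction of -0.96 ± 0.52. That call was lost without any of the 4 WT libraries or *Elf4-/-*-Control library 1. Among 26 MHC and interferon-gamma genes, 4 had a positive and 1 a negative interaction at an unadjusted p under 0.05, with a median of 0.28 that became -0.18 on library totals. Those counts were 2 positive without WT-EtOH library 2 and 4 negative without *Elf4-/-*-Control library 2 or *Elf4-/-*-EtOH library 2. The GTPase genes *Irgm1* (1.42) and *Iigp1* (1.26) had the smallest p among them.

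The interferon-stimulated response element, to which ISGF3 binds, is shown for the members with the smallest interaction p and for *Ifit3*, a neighbour of *Ifit1*. The letters GAAA, any 2 bases and GAAA again, on either strand, were in the promoter window of 11 of the 20 interferon-stimulated genes with a window (55%) and of 1079 of all 27025 genes (3.99%). The windows below are RefSeq sequence of GRCm38.p6, with capitals for the motif, and overlapping matches run together:
*Isg15*, chr4:156200871-156200900, minus strand: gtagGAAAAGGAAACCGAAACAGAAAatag
*Ifit1*, chr19:34640785-34640814, plus strand: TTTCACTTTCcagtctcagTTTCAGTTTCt
*Ifit3*, chr19:34583363-34583392, plus strand: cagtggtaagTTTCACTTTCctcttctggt
*Ifit3*, chr19:34583397-34583426, plus strand: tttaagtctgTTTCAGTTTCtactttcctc
The stretch in *Isg15* holds 3 overlapping matches and that in *Ifit1* holds 2. Their first bases lie 82 and 104 bases before the start sites, and those of *Ifit3* 166 and 132 bases before its start. No binding was measured here.

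**Figure D3:**
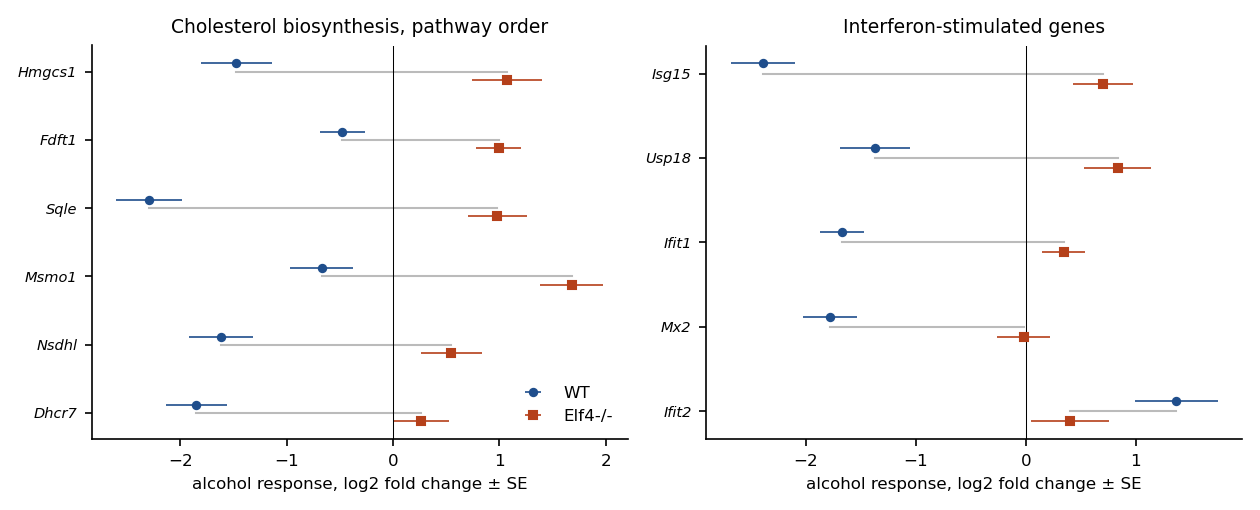
Alcohol response (log2 EtOH over Control, error bars ± SE from the edgeR fit) of 6 cholesterol biosynthesis and 5 interferon-stimulated genes named in the text, in WT and in *Elf4-/-*. *Sqle* lies at -2.29 in WT and 0.98 in *Elf4-/-* and *Isg15* at -2.39 and 0.70, while *Ifit2* lies above 0 in both.

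Most transcripts of the mitochondrial genome fell in WT, and all tested had positive interaction values. The 13 genes tested encode core subunits of the respiratory chain and of ATP synthase. All 13 had a positive interaction value, 11 at an unadjusted p under 0.05, with a median of 2.09, from 1.73 to 2.31 when single libraries were left out and 1.62 on library totals. In WT 10 fell, which became 3 and 1 without WT-EtOH library 1 or 2, and 0 of 13 were called in *Elf4-/-*. Over all genes tested, 4.94% had a positive interaction at an unadjusted p under 0.05 and 10.8% fell in WT. In *Elf4-/-* 1.71% of all genes rose and 1.18% fell, so the 0 is near the share of all genes. The WT and *Elf4-/-* medians were -1.90 and 0.19. *mt-Co2*, cytochrome c oxidase subunit II, stood at 1111 and 1571 CPM on the control diet and 355 and 330 with alcohol in WT, and at 475 and 591 without and 873 and 720 with alcohol in *Elf4-/-*. Its interaction was 2.55 ± 0.38 (adjusted p = 0.129). The controls differed as well as the alcohol-fed groups, with both *Elf4-/-*-Control libraries below both WT-Control libraries.

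*mt-Co1*, cytochrome c oxidase subunit I, fell by 1.90 ± 0.44 in WT (adjusted p = 0.0158), lost without WT-EtOH library 1 or 2 (adjusted p = 0.0712 and 0.11). *mt-Cytb* fell by 2.07 ± 0.43 (lost without WT-EtOH library 2, adjusted p = 0.0906) and *mt-Nd5* by 2.07 ± 0.40 (lost without the same library, adjusted p = 0.0759). In *Elf4-/-* their values were 0.19, -0.05 and 0.45. *mt-Nd3* had an interaction of 1.13 ± 1.14 that turned to -0.06 without WT-Control library 1 and to -1.10 without *Elf4-/-*-EtOH library 1. *mt-Co1*, *mt-Cytb* and *mt-Nd3* were chosen after their values were seen, and nuclear copies of these genes can share their reads. In the nuclear-encoded respiratory chain, 0 of 77 genes had a positive and 5 a negative interaction at an unadjusted p under 0.05. The 5 are 6.49% of the list, near the 5.15% of all genes tested. The median interaction was -0.07, and in WT 19 rose and 4 fell (10.8% and 10.8% of all genes). Left out singly, the libraries moved the 5 from 1 (without WT-Control library 1) to 16 (without WT-Control library 2), the 19 down to 9 (without WT-EtOH library 2) and the 4 to 0 (without WT-Control library 2 or either WT-EtOH library).

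Genes of amino acid breakdown had a median response below 0 in WT, where 9 of 23 fell, and close to 0 in *Elf4-/-*. The list covers hepatocyte enzymes that degrade single amino acids. Of 23 genes, 21 had a positive interaction, 12 at an unadjusted p under 0.05, with medians of -0.80 in WT, -0.02 in *Elf4-/-* and 0.92 for the interaction. In WT 1 rose besides the 9 that fell, and in *Elf4-/-* 1 rose. The 12 became 5 without WT-Control library 2, WT-EtOH library 2, *Elf4-/-*-Control library 1 or *Elf4-/-*-EtOH library 1, and 3 on library totals, and the 9 became 3 without WT-EtOH library 2. *Agxt*, which clears glyoxylate, stood at 114 and 155 CPM on the control diet and 38.7 and 13.8 with alcohol in WT, and at 118 and 107 without and 109 and 87.3 with alcohol in *Elf4-/-*. It fell by 2.36 ± 0.40 in WT (adjusted p = 0.00481; -3.29 without WT-EtOH library 1), and its interaction was 2.17 ± 0.55. *Kynu*, a kynureninase of tryptophan breakdown, fell by 1.41 ± 0.24 in WT (lost without WT-EtOH library 2, adjusted p = 0.0608), against -0.04 ± 0.24 in *Elf4-/-*. *Uroc1*, urocanate hydratase of histidine breakdown and chosen after its values were seen, fell by 1.68 ± 0.22 in WT and had -0.50 ± 0.22 in *Elf4-/-*.

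Methionine cycle and urea cycle genes had median interaction values of 0.52 and 0.71. In the methionine and one-carbon list 5 of 18 genes had a positive and 2 a negative interaction at an unadjusted p under 0.05, with medians of -0.25 in WT and 0.30 in *Elf4-/-*. The 5 became 3 without WT-EtOH library 2 or *Elf4-/-*-Control library 1 and 8 without *Elf4-/-*-EtOH library 2. *Cth*, which makes cysteine from cystathionine, stood at 200 and 216 CPM on the control diet and 134 and 84.7 with alcohol in WT, and at 182 and 209 without and 352 and 290 with alcohol in *Elf4-/-*, an interaction of 1.64 ± 0.36. Its WT response of -0.93 (adjusted p = 0.0298) was lost without any 1 of 5 libraries, with -0.64 (adjusted p = 0.222) without WT-EtOH library 2. *Cbs*, the preceding enzyme and chosen after its values were seen, fell by 1.57 ± 0.23 in WT (adjusted p = 0.00281) and had -0.31 ± 0.22 in *Elf4-/-*. *Bhmt*, which remethylates homocysteine from betaine, had 831 and 1688 CPM in WT on the control diet and 153 and 71.6 with alcohol, and in *Elf4-/-* 1026 and 1472 CPM on the control diet, but 6692 and 798 with alcohol. Its 2 alcohol-fed *Elf4-/-* libraries lay on either side of their controls, and its WT response of -3.49 was lost without WT-Control library 2 (-2.89, adjusted p = 0.0809) or without WT-EtOH library 1 or 2 (-4.13 and -3.05). Of 8 urea cycle genes, 1 had a positive and 0 a negative interaction at an unadjusted p under 0.05, and 2 fell in WT (0 without WT-EtOH library 2) and 0 were called in *Elf4-/-*. The 1 became 3 without WT-Control library 1 and 4 without WT-EtOH library 1 or *Elf4-/-*-EtOH library 2. The gene with the smallest p was *Otc*, ornithine transcarbamylase, with an interaction of 1.35 ± 0.39. It fell by 1.69 ± 0.28 in WT (adjusted p = 0.00445), a call lost without WT-EtOH library 2 (adjusted p = 0.0536), and had -0.34 ± 0.27 in *Elf4-/-*.

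Acute-phase protein genes had positive values whose count moved with single libraries. These secreted hepatocyte proteins are known to rise with IL-6 signalling. Of 24 genes, 22 had a positive interaction and 8 did so at an unadjusted p under 0.05, with medians of -0.64 in WT and 0.60 in *Elf4-/-*. In WT 3 fell and 1 rose (10.8% and 10.8% of all genes). In *Elf4-/-* 0 were called (1.71% of all genes rose and 1.18% fell). These diet counts are near or below the shares of all genes. Without *Elf4-/-*-EtOH library 1 the 8 became 3, with 2 negative, and without library 2 of that group they became 14, with 1 negative, and 7 of the list rose in *Elf4-/-*. The 8 also became 3 without WT-Control library 2 or *Elf4-/-*-Control library 1, 4 without WT-EtOH library 2 and 15 without WT-EtOH library 1, and the 3 WT falls became 0 without WT-Control library 2 or WT-EtOH library 2. *Lcn2*, lipocalin 2, was at 138 and 6.5 CPM in the 2 *Elf4-/-*-EtOH libraries, against 3.38 and 3.58 in the controls of that genotype, and in WT at 28.5 and 62.9 without and 21.1 and 6.62 with alcohol. *Orm3*, an orosomucoid gene, was at 112 and 7.03 CPM in *Elf4-/-*-EtOH. The metallothionein genes *Mt1* and *Mt2*, chosen after their values were seen, were at 1059 and 702 CPM in library 1 and at 7.56 and 1.46 in library 2. Their interaction values of 3.48 and 5.77 turned to -2.64 and -2.10 without library 1, and exons of *Mt2* overlap those of Gm45774 on the other strand. Of 17 genes of endotoxin sensing and inflammation, read for gut-derived products, 1 was positive and 0 negative at an unadjusted p under 0.05. That 1 is 5.88% of them, near the 4.94% of all genes tested. In WT 1 of those 17 fell and 0 rose, and 0 were called in *Elf4-/-*, all near or below the shares of all genes.

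Most fatty acid oxidation genes rose in WT, fewer were called in *Elf4-/-*, and most had negative interaction values. Peroxisomal and omega oxidation shorten and hydroxylate long-chain fatty acids, and their genes are targets of the nuclear receptor PPARα. Of 19 genes, 15 rose in WT and 4 in *Elf4-/-*, 0 fell in either, and 16 had a negative interaction value, 4 at an unadjusted p under 0.05. The medians were 1.71 in WT, 0.997 in *Elf4-/-* and -0.68 for the interaction, which ranged from -1.06 to -0.47 when single libraries were left out. The 15 became 6 without WT-EtOH library 2. The 4 in *Elf4-/-* became 2 and 1 without *Elf4-/-*-Control library 1 or 2 and 10 without *Elf4-/-*-EtOH library 2, and the 4 with a small p became 2 without WT-Control library 2 or WT-EtOH library 2 and 7 without *Elf4-/-*-EtOH library 1. In mitochondrial oxidation 13 of 19 genes rose in WT (7 without WT-EtOH library 2) and 4 in *Elf4-/-* (0 without either *Elf4-/-*-Control library and 7 without *Elf4-/-*-EtOH library 2), with medians of 0.98 and 0.61.

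The acyl-CoA thioesterase genes *Acot1*, *Acot4* and *Acot3*, neighbours on chromosome 12 that release free fatty acids from CoA, had interaction values of -4.09, -2.12 and -4.09. *Acot1* is not a member of the oxidation list. *Acot1* (chr12:84009490-84018371) stood at 1.12 and 0.736 CPM on the control diet and 148 and 177 with alcohol in WT, and at 4.72 and 8.5 without and 86.7 and 45.4 with alcohol in *Elf4-/-*. It rose by 7.43 ± 0.49 in WT and by 3.34 ± 0.37 in *Elf4-/-* (adjusted p = 0.00516; 2.95 with adjusted p = 0.0585 without *Elf4-/-*-Control library 1), an interaction with an SE of 0.62 (adjusted p = 0.129). On the control diet in WT, *Acot3* (chr12:84052144-84060402) stood at 0.373 and 0.552 CPM, with both libraries at the floor of 3 counts or less. With alcohol it stood at 132 and 261 CPM in WT. In *Elf4-/-* it stood at 4.2 and 3.88 CPM on the control diet and 97.6 and 98.7 with alcohol. It rose by 4.59 ± 0.34 in *Elf4-/-* (adjusted p = 0.000714), and its interaction, also with an SE of 0.62, rests on the few counts of WT-Control. *Acot4* had an SE of 0.46, with a WT rise of 3.48 ± 0.36 and 1.35 ± 0.33 in *Elf4-/-* (adjusted p = 0.0563). In all 3 genes the *Elf4-/-*-Control libraries lay above the WT-Control libraries and the *Elf4-/-*-EtOH libraries below the WT-EtOH libraries. These paralogs can share reads, and *Acot3* and *Acot4* overlap 4732463B04Rik on the other strand.

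Other PPARα targets, apart from *Hadhb*, were chosen after their values were seen. *Cyp4a10*, a fatty acid omega-hydroxylase, rose from 52 and 40.9 to 1100 and 1093 CPM in WT and from 106 and 86.7 to 1563 and 826 in *Elf4-/-*. Its responses were 4.56 ± 0.36 and 3.63 ± 0.35, the latter not called without *Elf4-/-*-Control library 2 (adjusted p = 0.0897). *Ehhadh*, the peroxisomal bifunctional enzyme, rose by 4.39 ± 0.52 and 3.08 ± 0.49. The second lost its call without *Elf4-/-*-Control library 1 or 2 (adjusted p = 0.138 and 0.198) and was 1.90 and 3.69 without *Elf4-/-*-EtOH library 1 or 2. In mitochondria, *Hadhb*, the beta subunit of the trifunctional protein, rose by 1.45 ± 0.20 in WT and had 0.58 ± 0.20 in *Elf4-/-*.

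Of the 21 genes of gluconeogenesis and glycolysis, which make glucose and break it down, 7 had a negative and 0 a positive interaction at an unadjusted p under 0.05. The median interaction was -0.40, and the medians were 0.09 in WT and -0.10 in *Elf4-/-*. In WT 6 rose and 3 fell, and in *Elf4-/-* 2 rose and 3 fell. The 7 became 2 without WT-Control library 1, 4 without WT-EtOH library 1 and 3 without WT-EtOH library 2 or either *Elf4-/-*-Control library, with at most 2 positive in any of these fits. The 3 that fell in WT became 1 without WT-Control library 1 or WT-EtOH library 1, 0 without WT-EtOH library 2 and 5 without either *Elf4-/-*-EtOH library, and both *Elf4-/-* counts became 0 without any 1 of the WT-EtOH or *Elf4-/-*-Control libraries. Without *Elf4-/-*-EtOH library 1 they were 0 rising and 1 falling, and without library 2 of that group 3 and 4.

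*Fbp1*, the fructose bisphosphatase of gluconeogenesis, stood at 59.9 and 120 CPM on the control diet and 423 and 397 with alcohol in WT, and at 137 and 95.5 without and 144 and 225 with alcohol in *Elf4-/-*. The diets did not overlap in either genotype, by a wider gap in WT. It rose by 2.19 in WT (adjusted p = 0.00415) and had 0.67 in *Elf4-/-* (adjusted p = 0.296), an interaction of -1.52 ± 0.49 (-2.11 without WT-Control library 2). *Gpi1*, glucose-6-phosphate isomerase, had the smallest interaction p of the list, with -1.12 ± 0.32, from 0.66 in WT (adjusted p = 0.0617) and -0.45 in *Elf4-/-* (adjusted p = 0.281), and its exons overlap those of Gm26762 on the other strand. *Pfkfb3*, which makes an activator of glycolysis and was chosen after its values were seen, stood in *Elf4-/-* at 28 and 49.7 CPM on the control diet and 5.74 and 12.7 with alcohol, and in WT at 13.2 and 12.5 without and 6.7 and 7.64 with alcohol. It fell by 2.05 in *Elf4-/-* (adjusted p = 0.0273), a call lost without either WT-EtOH or either *Elf4-/-*-Control library, and its interaction of -1.21 ± 0.53 was -1.92 without *Elf4-/-*-EtOH library 2, -0.76 without library 1 of that group and -0.74 without *Elf4-/-*-Control library 2.

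Heat shock proteins, the chaperones induced by unfolded protein, rose in WT in 13 of 20 genes (7 without WT-EtOH library 1) and in *Elf4-/-* in 4 (0 without either WT-EtOH library, either *Elf4-/-*-Control library or *Elf4-/-*-EtOH library 1, and 8 without library 2 of that group). No member fell in either genotype, 16 had a negative interaction value, and 5 of these were at an unadjusted p under 0.05 (3 without WT-EtOH library 1 or *Elf4-/-*-Control library 1). The medians were 1.12 in WT, 0.55 in *Elf4-/-* and -0.47 for the interaction. *Hsph1*, HSP105, stood at 18.6 and 14.2 CPM on the control diet and 60.8 and 82.8 with alcohol in WT, and at 30.8 and 25.2 without and 34.9 and 43.9 with alcohol in *Elf4-/-*. Its interaction was -1.64 ± 0.34 (adjusted p = 0.22). *Hspa1b*, inducible HSP70, stood in WT at 8.02 and 10.5 CPM on the control diet and 65.4 and 68 with alcohol, a rise of 2.85 ± 0.40. In *Elf4-/-* it was at 5.84 and 9.99 in control and 5.58 and 14.7 with alcohol, which overlapped. It shares most of its sequence with *Hspa1a*.

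Markers of Kupffer cells and of sinusoidal endothelium rose with alcohol in WT, apart from 2 endothelial genes, and had smaller median responses in *Elf4-/-*. All 13 Kupffer cell genes rose in WT (9 without either WT-EtOH library) and 3 in *Elf4-/-* (1 without either WT-EtOH library, 0 without either *Elf4-/-*-Control library or *Elf4-/-*-EtOH library 1, and 6 without library 2 of that group), and all 13 had a negative interaction, 9 at an unadjusted p under 0.05. The medians were 2.0, 0.80 and -1.13. *Cd5l*, a macrophage-secreted scavenger receptor protein, stood at 49.6 and 34.6 CPM on the control diet and 178 and 177 with alcohol in WT, and at 35.3 and 28 without and 56.4 and 53.9 with alcohol in *Elf4-/-*. Its interaction was -1.28 ± 0.31. *C1qa*, of complement C1q, rose by 2.0 ± 0.22 in WT and had 0.78 ± 0.22 in *Elf4-/-* (adjusted p = 0.0825). *Clec4f*, a lectin that in mice defines Kupffer cells, and chosen after its values were seen, stood in WT at 128 and 103 CPM on the control diet and 232 and 238 with alcohol, a rise of 1.02 (lost without WT-EtOH library 2, adjusted p = 0.0659). In *Elf4-/-* its 4 libraries lay between 89.4 and 96 CPM.

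Of the sinusoidal endothelial genes, 10 of 12 rose in WT (5 without WT-EtOH library 2), 0 were called in *Elf4-/-* (5 rose without *Elf4-/-*-EtOH library 2) and all 12 were negative in the interaction, 8 at an unadjusted p under 0.05. Over all genes tested, 10.8% rose in WT, and 1.71% rose and 1.18% fell in *Elf4-/-*. The 0 called in *Elf4-/-* is near that share. The medians were 2.23, 0.63 and -1.68. *Kdr*, the VEGF receptor 2, stood at 9.51 and 4.78 CPM on the control diet and 40.3 and 54.1 with alcohol in WT, and at 16.9 and 19.4 without and 30.3 and 24.3 with alcohol in *Elf4-/-*. Its interaction was -2.14 ± 0.42. *Dnase1l3*, a secreted nuclease, had -1.98 ± 0.47. Stellate cell and matrix genes rose in WT in 7 of 15 (3 without WT-Control library 2 or WT-EtOH library 2) and were called in *Elf4-/-* in 0 (6 rose without *Elf4-/-*-EtOH library 2), with *Colec11*, a collectin, at 2.46 ± 0.31 in WT and 0.69 ± 0.28 in *Elf4-/-*. Genes of neutrophils, monocytes and lymphocytes rose in WT in 2 of 11, and 0 were called in *Elf4-/-*.

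The summed level of the endothelial genes was 261 and 154 CPM without and 564 and 680 with alcohol in WT, and 332 and 371 without and 575 and 352 with alcohol in *Elf4-/-*. The summed Kupffer level was 327 and 250, 955 and 867, 241 and 237, and 418 and 343 CPM in the same order. The endothelial sum was lower in WT-Control than in *Elf4-/-*-Control, and 1 of the 2 *Elf4-/-*-EtOH libraries lay within the WT-EtOH range. For Kupffer genes both alcohol-fed *Elf4-/-* libraries lay below both alcohol-fed WT libraries, and the controls of *Elf4-/-* lay just below those of WT. Hepatocyte markers had 0 of 10 at an unadjusted interaction p under 0.05 and a median of 0.34, which became -0.10 on library totals. *Alb*, chosen after its values were seen, had an interaction of 0.19 ± 0.53, which turned to -0.26 on library totals. Whether cell makeup took part in the other lists was not tested.

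**Figure D4:**
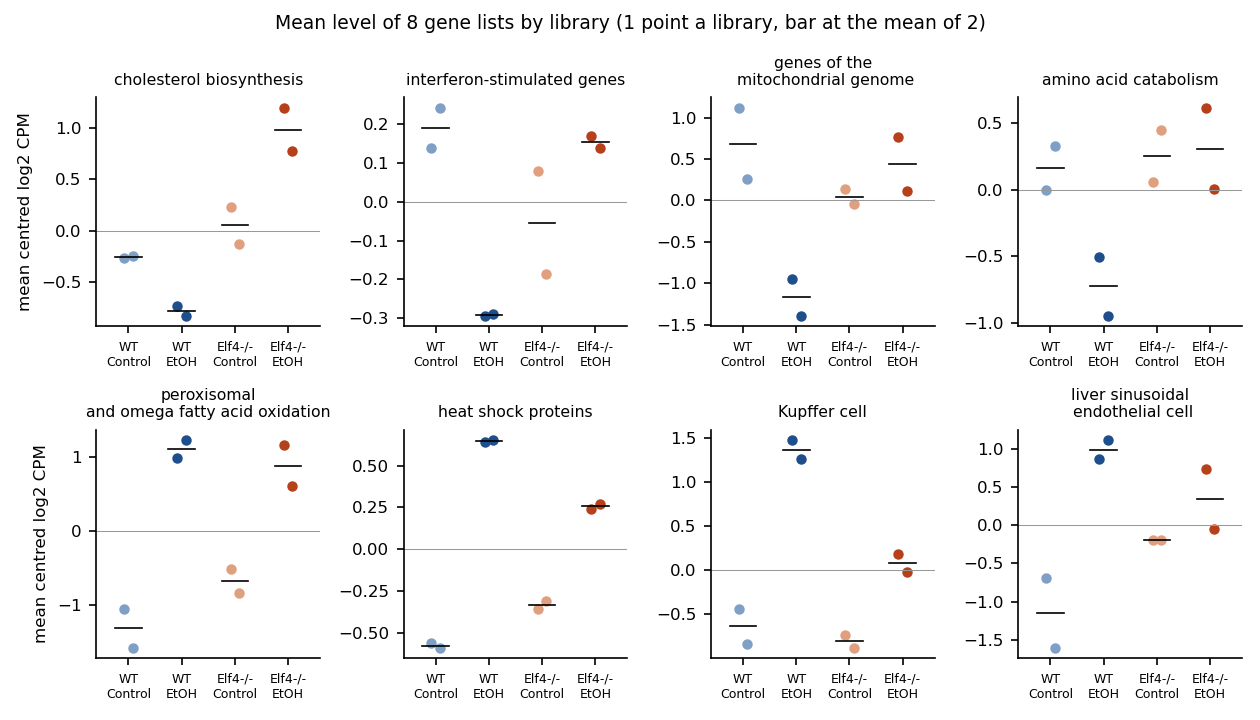
Mean log2 level of 8 gene lists in each of the 8 libraries, relative to the mean of all libraries (y axis, log2 units), by group. Cholesterol biosynthesis lies lowest in WT-EtOH and highest in *Elf4-/-*-EtOH, and Kupffer cell genes lie highest in WT-EtOH.

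Several functions had responses called in both genotypes in the same direction. Male-biased liver genes fell in 17 of 22 cases in WT (11 without WT-EtOH library 2) and in 14 in *Elf4-/-* (2 without *Elf4-/-*-Control library 2), with medians of -4.13 and -3.16. Female-biased genes rose in 10 and 7 of 14 (5 in WT without WT-Control library 2), with medians of 4.64 and 4.13. Xenobiotic cytochromes P450, induced by foreign compounds, rose in 10 of 22 in each genotype. Glutathione and NRF2 target genes rose in 14 and 11 of 21, with medians of 2.02 and 1.89, and proteasome subunits in 17 and 8 of 37, with medians of 0.69 and 0.66. Without *Elf4-/-*-Control library 1 or 2 the *Elf4-/-* counts became 3 and 2 for the female-biased, 1 and 1 for the cytochrome, 0 and 0 for the glutathione and 0 and 0 for the proteasome list. The WT counts of the glutathione and proteasome lists became 9 and 6 without WT-EtOH library 2. In each of these 5 lists at most 3 members had an interaction at an unadjusted p under 0.05 in 1 direction. That number became 14 negative in the glutathione list without *Elf4-/-*-EtOH library 1, and 8 positive or 6 negative in the male-biased list without library 1 or 2 of that group. *Elovl3*, a male-biased fatty acid elongase, fell by 2.41 ± 0.25 in WT and had -0.67 ± 0.25 in *Elf4-/-*. Its *Elf4-/-*-Control libraries were already at 19.3 and 28.6 CPM, against 71.2 and 73.6 in WT-Control.

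Some genes outside these functions were among those with the smallest interaction p. *Camk1d*, a calcium/calmodulin-dependent kinase (chr2:5293457-5714515), stood at 28.7 and 32 CPM on the control diet and 8.6 and 10.7 with alcohol in WT, and at 21.3 and 18.1 without and 32.2 and 22.8 with alcohol in *Elf4-/-*, an interaction of 2.12 ± 0.33 (adjusted p = 0.14). *Retsat*, retinol saturase (chr6:72598475-72608425), stood at 66.8 and 55.8, 526 and 668, 99.4 and 105, and 261 and 282 CPM in the same order. It rose in both genotypes, by 3.28 ± 0.24 and 1.41 ± 0.22, the second lost without *Elf4-/-*-Control library 1 or 2 (adjusted p = 0.154 and 0.186). Gm45053, of unknown function, lies across *Retsat* on the other strand, and since the strand setting of the counting is not given in the sources used here their reads cannot be told apart. *Akr1c19*, an aldo-keto reductase, rose by 2.80 ± 0.22 in WT and by 1.09 ± 0.20 in *Elf4-/-*, the latter lost without either WT-EtOH or either *Elf4-/-*-Control library, with adjusted p from 0.0517 to 0.207.

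*Tlcd2*, a TLC-domain membrane protein gene (chr11:75461715-75470899) chosen after its values were seen, was the 1 gene with called responses of opposite sign. It stood at 45.7 and 43.8 CPM on the control diet and 17.3 and 26.3 with alcohol in WT, and at 35.9 and 41.8 without and 103 and 71.1 with alcohol in *Elf4-/-*. The response of -1.03 ± 0.25 in WT (adjusted p = 0.0194) was lost without WT-Control library 1 or 2 or WT-EtOH library 1 (adjusted p from 0.0623 to 0.148). The rise of 1.16 ± 0.25 in *Elf4-/-* (adjusted p = 0.0414) was lost without any library but *Elf4-/-*-EtOH library 2. Its exons overlap those of *Mir22hg* on the same strand over 206 bases.

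The carboxylesterase gene *Ces1d*, chosen after its values were seen, rose in WT and had no called response in *Elf4-/-*. In WT it stood at 235 and 154 CPM on the control diet and 979 and 1764 with alcohol (2.82 ± 0.39, adjusted p = 0.00248), and in *Elf4-/-* at 661 and 888 without and 520 and 829 with alcohol (-0.20 ± 0.36). *Me1*, malic enzyme, rose by 2.26 ± 0.27 in WT and had 0.40 ± 0.26 in *Elf4-/-*, and its *Elf4-/-*-Control libraries, at 105 and 104 CPM, lay above those of WT-Control at 43.8 and 35. *Calr*, the chaperone calreticulin, fell by 1.36 ± 0.23 in WT (lost without WT-EtOH library 2, adjusted p = 0.0608) and had 0.07 ± 0.22 in *Elf4-/-*. The immediate early gene *Ier2* fell by 1.58 ± 0.22 in WT and had 0.02 ± 0.22. *Hamp2*, a hepcidin gene, had values of 1.39 in WT and -1.33 in *Elf4-/-*, neither called by edgeR. Without *Elf4-/-*-EtOH library 2 the latter was -2.29 and was called (adjusted p = 0.00424), and the interaction of -2.72 became -3.67 and was called too (adjusted p = 0.0067). It stood at 31.1 and 16 CPM on the control diet and 69.7 and 53.8 with alcohol in WT, and at 235 and 165 without and 41.4 and 117 with alcohol in *Elf4-/-*, and its exons overlap those of Gm44662. Iron handling as a list had 0 positive and 2 negative of 13 at an unadjusted p under 0.05.

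Genes with a response called in *Elf4-/-* and not in WT were fewer. The interaction calls of DESeq2 with a response in *Elf4-/-* only included *Msmo1* and *Fdft1*, described above, and *Ddc* and *Cyp26a1*, which were chosen for that. *Ddc*, aromatic amino acid decarboxylase, stood in *Elf4-/-* at 6.76 and 8.05 CPM on the control diet and 52.4 and 30.4 with alcohol, against 14.7 and 21.2 without and 25.3 and 29.4 with alcohol in WT. It rose by 2.48 ± 0.31 in *Elf4-/-* (edgeR adjusted p = 0.00972; lost without *Elf4-/-*-Control library 1 or 2, adjusted p = 0.1 and 0.124). *Cyp26a1*, which degrades retinoic acid, rose by 2.43 ± 0.53 in *Elf4-/-* (adjusted p = 0.0425). The call was lost without any library but *Elf4-/-*-EtOH library 2, with values of 1.95 and 3.05 without *Elf4-/-*-Control library 1 or 2 and 1.59 without *Elf4-/-*-EtOH library 1. Of the 111 DESeq2 calls, 87 had a response called in WT only, 5 in *Elf4-/-* only, 13 in both with the smaller in *Elf4-/-*, 4 in both with opposite signs (*Tlcd2*, *Sqle*, *Hmgcs1* and *Hamp2*) and 2 in neither. Among them were 8 of the cholesterol biosynthesis genes, 8 of the mitochondrial genome and 4 interferon-stimulated genes, all positive, and 4 sinusoidal endothelial genes, all negative.

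The edgeR calls made without *Elf4-/-*-EtOH library 1 and those made without library 2 shared 13 genes with the same sign, 21.0% of the first set and 9.35% of the second. They were *Sqle*, *Msmo1*, *Dhcr7*, *Isg15*, *Ifit1*, *mt-Co2*, *Camk1d* and *Tlcd2* with positive values and *Acot1*, *Acot3*, *Retsat*, *Cyp4b1* and Gm45053 with negative ones. The fits share 6 of their 7 libraries. *Cyp4b1*, a cytochrome P450 chosen after its values were seen, stood in WT at 3.54 and 1.1 CPM on the control diet and 26.8 and 27.6 with alcohol. In *Elf4-/-* it stood at 12.7 and 13.4 without and 19.1 and 8.23 with alcohol. It rose by 3.54 ± 0.50 in WT (4.60 and 2.94 without WT-Control library 1 or 2) and had 0.06 ± 0.41 in *Elf4-/-*, where the diets overlapped.

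**Figure D5:**
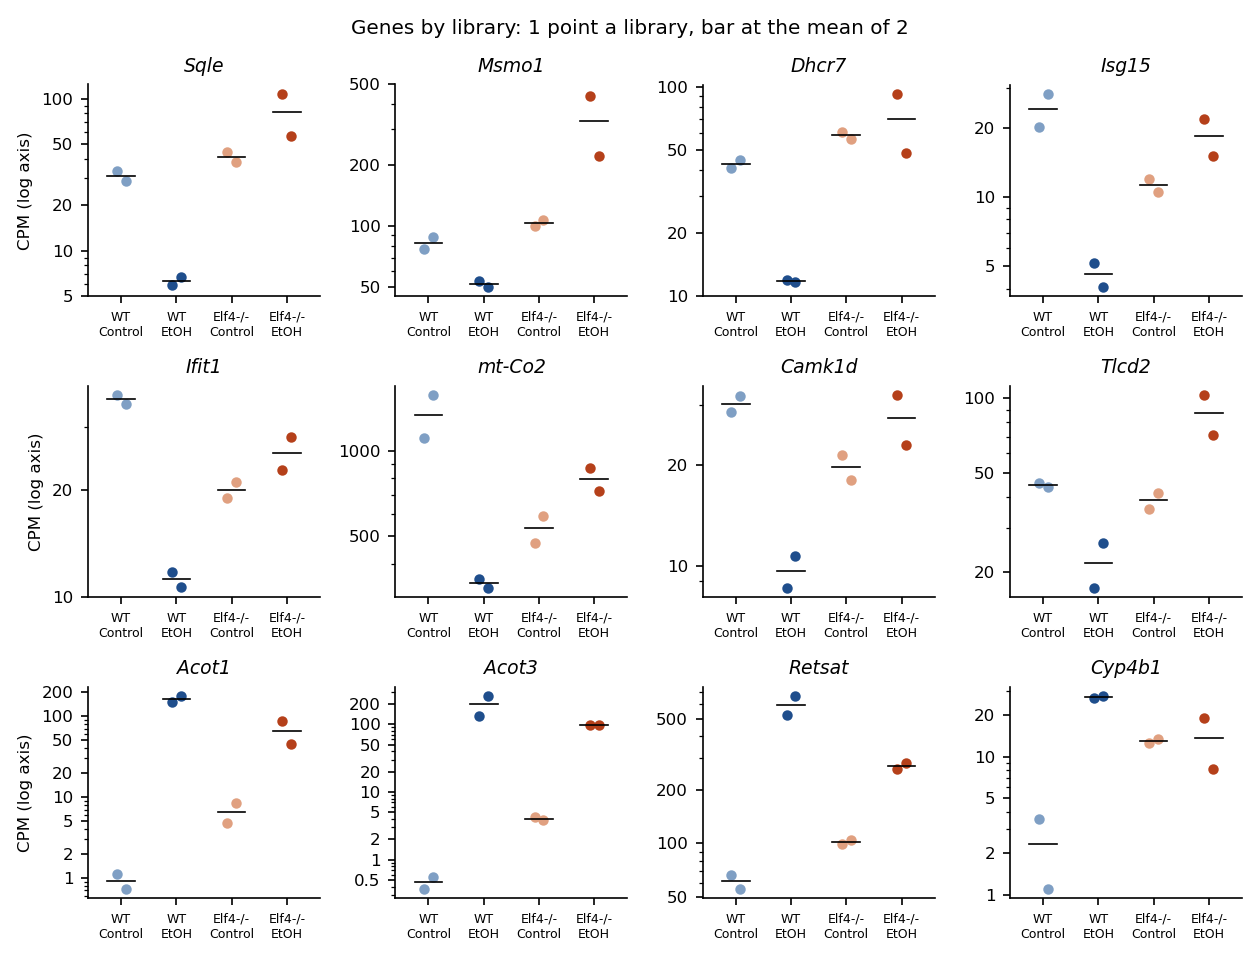
Level of 12 of the genes with the smallest interaction p or called with either alcohol-fed *Elf4-/-* library left out (y axis, CPM on a log scale), 1 point a library, in the 4 groups. In *Sqle*, *Isg15*, *Ifit1*, *mt-Co2* and *Tlcd2* the WT-EtOH points lie below WT-Control and the *Elf4-/-*-EtOH points above *Elf4-/-*-Control.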

How the data were processed

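The authors sequenced liver RNA as paired-end Illumina reads, mapped them to mm10 with HISAT2, sorted them with SAMtools and deposited raw read counts per gene from HTSeq. Versions, annotation and strand setting are not given in the sources used here. The table also held 968 wholly empty lines, which were dropped.

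Here, the counts of 13993 of 19267 genes passed edgeR's filterByExpr by group. They were fitted in 1 model of 4 groups with TMM scaling and the quasi-likelihood test (edgeR 4.0.16, R 4.3.3). The same fit was also run on counts simulated from these libraries. Contrasts were the interaction and the alcohol response in each genotype, with 4 residual degrees of freedom. P-values were two-sided and Benjamini-Hochberg adjusted over all genes tested, with a threshold of 0.05. The common biological coefficient of variation was 22.7%. CPM values are TMM-scaled. DESeq2 1.42.0, limma 3.58.1, other scalings and filters, a replicate block and each library left out were alternatives. Fits without 1 library assume that the lone library of its group varies like the others.

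Gene lists and members were chosen with earlier results of these data known. Named genes were *Elf4* and up to 12 called genes of each sign (with a mean of at least 50 counts), filled to 5 by smallest unadjusted p. The rule also took any called in the interaction with opposite responses. From each list it took up to 4 called genes or, with none called, the 2 of smallest p. Genes outside this rule are said to be chosen after their values were seen, and some genes are not reported here. Positions are from GENCODE on GRCm38 (mm10) and promoter sequences from RefSeq.

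Same-numbered libraries were checked for pairing over 9398 genes. The correlations of their deviations ran from -0.134 to 0.114, so the numbers do not pair the samples.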

Additional observations from a re-analysis of the deposited data

How the results depend on the processing

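All counts are genes at an adjusted p under 0.05, and responses are called in each genotype by the same fit. The interaction had 0 calls in edgeR, 1411 genes at an unadjusted p, 111 in DESeq2, 98 in DESeq2 without its filters on mean expression and outliers and 7 without the count filter. It had 0 under limma-voom, median-of-ratios factors, library totals, without mitochondrial genes, in genes averaging 50 or more counts and with a replicate block. Of the 3 counts the block moved by over 1.5 times only that of the *Elf4-/-* response, to 240 calls. Leaving out single libraries gave 0 to 139 interaction calls, 626 to 4023 calls in WT and 9 to 1683 in *Elf4-/-*, where DESeq2 gave 811 and 789 without its filters. Genes called in the interaction had a response in WT only in 87 cases, in *Elf4-/-* only in 5, smaller in *Elf4-/-* in 13, opposite in 4 and in neither in 2 with DESeq2. Without its filters these were 76, 6, 10, 3 and 3, and without the count filter 4 were in WT only and 3 smaller in *Elf4-/-*. With single libraries left out these ranged from 0 to 60 in WT only, 0 to 34 in *Elf4-/-* only, 0 to 8 smaller and 0 to 7 larger in *Elf4-/-* and 0 to 32 opposite. Interaction values that changed sign were *Alb* (-0.26 on library totals, and -0.044 to 0.39 with single libraries left out), *Elf4* (-0.14 to 0.88), *Hbb-bs* (-1.29 to 0.81), *mt-Nd3* (-1.10 to 1.97), *Mt1* (-2.64 to 4.47) and *Mt2* (-2.10 to 6.98), and the cause was not tested. Of the other interaction values of named genes, all kept their sign under the alternatives run. With 2 libraries a group, the spread within *Elf4-/-*-EtOH limits what the interaction can show.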
